A study of Arabidopsis thaliana with 109 samples.

Results

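The 10 type-A response regulator genes of Arabidopsis thaliana were followed through 3 expression tables of light-grown seedlings. They are ARR3 (AT1G59940), ARR4 (AT1G10470), ARR5 (AT3G48100), ARR6 (AT5G62920), ARR7 (AT1G19050), ARR8 (AT2G41310), ARR9 (AT3G57040), ARR15 (AT1G74890), ARR16 (AT2G40670) and ARR17 (AT3G56380). They were chosen by gene ID as the members of the family. The rule uses no measured values, but it was set with earlier results of these data known. All 10 were found among the 33602 gene models of each table. The series of 109 samples holds 29 RNA-seq libraries and 80 chromatin immunoprecipitation samples. Used here are the 3 expression tables and, for PIF7 binding, 3 lists of events that the authors deposited.

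The study asked how PHYTOCHROME INTERACTING FACTORs (PIFs) act when seedlings are moved from white light to light of a low red to far-red ratio (low R:FR), the light of vegetation shade. In table I, wild type seedlings (Col-0) were kept in white light, shaded for 2 h (low R:FR), or shaded for 2 h and returned to white light for 2 h more, a group called recovery here (3 libraries each). Table II holds the line pif457_PIF7:PIF7:4xMYC, a pif457 mutant that carries MYC-tagged PIF7, before shading (white light) and 5, 10 and 30 min into low R:FR (3 libraries each). Table III holds pif457 after 30 min of low R:FR and in white light, and wild type after 30 min and in white light (2 libraries each). Seedlings of all groups grew in light on Linsmaier and Skoog medium, and their age is not given in the labels. Table II has no wild type, and every one of its groups carries the pif457 mutations and the transgene, whose promoter the labels do not spell out. Whether replicates were separate cultures is not stated by the labels, and p-values then reflect only the spread between these libraries. No harvest hour is given for the expression libraries, so light and hour cannot be told apart if the groups differ in it.

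Cytokinin is sensed by histidine kinase receptors of the AHK family. The receptors pass a phosphoryl group through AHP proteins to the type-B response regulators, which are transcription factors and switch on the type-A genes within minutes. Type-A regulators are short receiver proteins without a DNA-binding domain that damp the pathway in turn, so their transcripts are widely read as a gauge of cytokinin response. In seedlings cytokinin promotes cell division in the shoot and slows root growth.

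Values are the authors' length-normalised transcript shares (TPM), so levels of different genes may be set side by side. The 3 tables were treated as separate experiments. Changes are differences of log2(TPM + 1) with the standard error (SE) from limma, a linear model fitted over all genes of a table. A gene is called raised or lowered at a Benjamini-Hochberg adjusted p under 0.05 over all genes tested, a p that misses it does not show equality, and the share of all genes called is given as the background beside each first count. In pif457 libraries of table III, PIF7 stood at 0.35 to 1.47 TPM, against 21.6 to 28.0 TPM in wild type. The shade gene ATHB2 stood at 17.3 to 18.5 TPM in pif457 after 30 min, against 133 and 149 TPM in wild type after 30 min. Genes at 1 TPM or more numbered 18468 to 18981, 18098 to 19020 and 17714 to 19215 per library in tables I, II and III. Ribosomal RNA and organellar transcripts took 3.27 to 12.8%, 1.24 to 5.06% and 4.09 to 23.1% of TPM. The highest of these shares belongs to replicate 1 of pif457 after 30 min, which stands apart from its group (5.78% in replicate 2) and also holds the fewest genes at 1 TPM. All 4 green shoot markers were at 2954 TPM or more in every library, as the label seedlings implies, and the root marker PYK10 stood at 403 to 1571 TPM. In whole seedlings, fewer cells of a type and less RNA per cell cannot be told apart.

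The levels of the family spanned a wide range, and the top of the order was shared by the 3 tables. ARR4, which is known to bind phytochrome B and to stabilise its active form, was the most abundant member in each of the 29 libraries and made up 34.5 to 54.5% of the summed TPM of the 10 genes. White light of table II gave 43.1 ± 5.38 TPM of ARR4 (SD, n = 3). ARR9 and its close relative ARR8 came next in that group, at 16.8 ± 2.15 and 13.2 ± 1.43 TPM, and their ranges overlapped. ARR7, ARR6 and ARR5, at 5.81 ± 1.2, 4.30 ± 1.97 and 4.14 ± 1.24 TPM, formed a lower tier whose neighbours did not differ beyond their spread. ARR16, ARR15 and ARR3 followed at 1.85 ± 0.725, 1.12 ± 0.718 and 0.810 ± 0.720 TPM, again with overlapping neighbours.

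ARR4 was first in all 11 groups, and ARR9 was second in all of them except wild type after 30 min in table III. In that group ARR8 had 31.3 and 26.2 TPM and ARR9 had 28.6 and 26.9 TPM, so that their ranges overlapped. ARR17, the partner of ARR16 by sequence, was close to absent. It was listed at 0 in 8 of 9 libraries of table I, 8 of 12 of table II and 7 of 8 of table III, and its highest value was 2.09 TPM. Below ARR4 and ARR9 the order differed between tables. In white light of table III, ARR7 averaged 21.5 TPM in pif457 and 21.5 TPM in wild type, above ARR8 at 18.5 TPM in pif457 and 20.6 TPM in wild type, and the ranges overlapped in wild type only. In recovery of table I, ARR6 averaged 17.9 TPM, ARR8 17.1 TPM and ARR7 11.7 TPM. ARR16 and ARR17 are known from the stomatal lineage, a cell type that makes up a small part of a seedling.

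In the PIF7-MYC line, 10 min of low R:FR raised 5 of 10 members of the family, where 4.19% of all genes tested were raised. No member was called after 5 min, where 3.88% of all genes were. ARR5, ARR6 and ARR7, the members used most often as cytokinin reporters or known as targets of the stem cell factor WUSCHEL, reached 2.6, 2.99 and 2.35 times their white light mean, and ARR4 and ARR8 rose to 1.60 and 1.41 times theirs. After 30 min the same 5 genes lay between the white light and the 10 min means. The calls are thus at 1 time point, while ARR5, ARR6 and ARR8 also lay above the white light range in all 3 libraries of 30 min. How many of all genes did so was not counted.

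ARR6 stood at 3.93, 6.43 and 2.55 TPM in the white light libraries, 6.30, 4.94 and 5.82 TPM after 5 min, 12.7, 11.7 and 14.2 TPM after 10 min and 6.61, 7.04 and 9.24 TPM after 30 min. All 3 libraries of 10 min lay above all others, and those of 30 min lay above the white light range. Its change at 10 min against white light was 1.45 (SE 0.23, adjusted p = 0.0141, limma), the 68th highest of 14462 genes of at least 5 TPM on average.

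ARR5 stood at 2.73, 5.05 and 4.63 TPM under white light, 4.51, 4.52 and 3.80 TPM after 5 min, 10.4, 10.0 and 11.8 TPM after 10 min and 5.66, 7.29 and 7.19 TPM after 30 min. The 10 min libraries were again the highest of the 12, and white light and 5 min overlapped. The change at 10 min was 1.22 (SE 0.18, adjusted p = 0.0104, limma).

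ARR7 is a paralog of ARR15, and both are known from the shoot meristem and the embryonic root. ARR7 had 4.60, 5.82 and 7.00 TPM in the white light libraries, 5.92, 5.31 and 6.6 TPM after 5 min, 13.7, 11.8 and 15.4 TPM after 10 min and 5.89, 9.91 and 9.89 TPM after 30 min. The 10 min libraries did not overlap with any other group, whereas 30 min overlapped with white light. The change at 10 min was 1.11 (SE 0.20, adjusted p = 0.0169, limma).

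ARR4 had the largest gain in TPM and a smaller one on the log scale. The white light libraries had 48.4, 37.7 and 43.2 TPM of ARR4, followed by 47.1, 43.6 and 43.1 TPM after 5 min, 65.2, 65.3 and 75.9 TPM after 10 min and 44.9, 47.6 and 62.3 TPM after 30 min. The lowest 10 min library lay above the highest of every other group, by less than 3 TPM in the case of 30 min. Its change at 10 min was 0.67 (SE 0.12, adjusted p = 0.0197, limma).

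ARR8 stood at 12.7, 14.7 and 12.0 TPM under white light, 13.1, 13.4 and 12.4 TPM after 5 min, 19.4, 17.4 and 18.9 TPM after 10 min and 15.5, 14.8 and 17.3 TPM after 30 min. The groups of 10 and 30 min nearly touched, and both lay above white light. The change at 10 min was 0.47 (SE 0.09, adjusted p = 0.0194, limma).

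**Figure D1:**
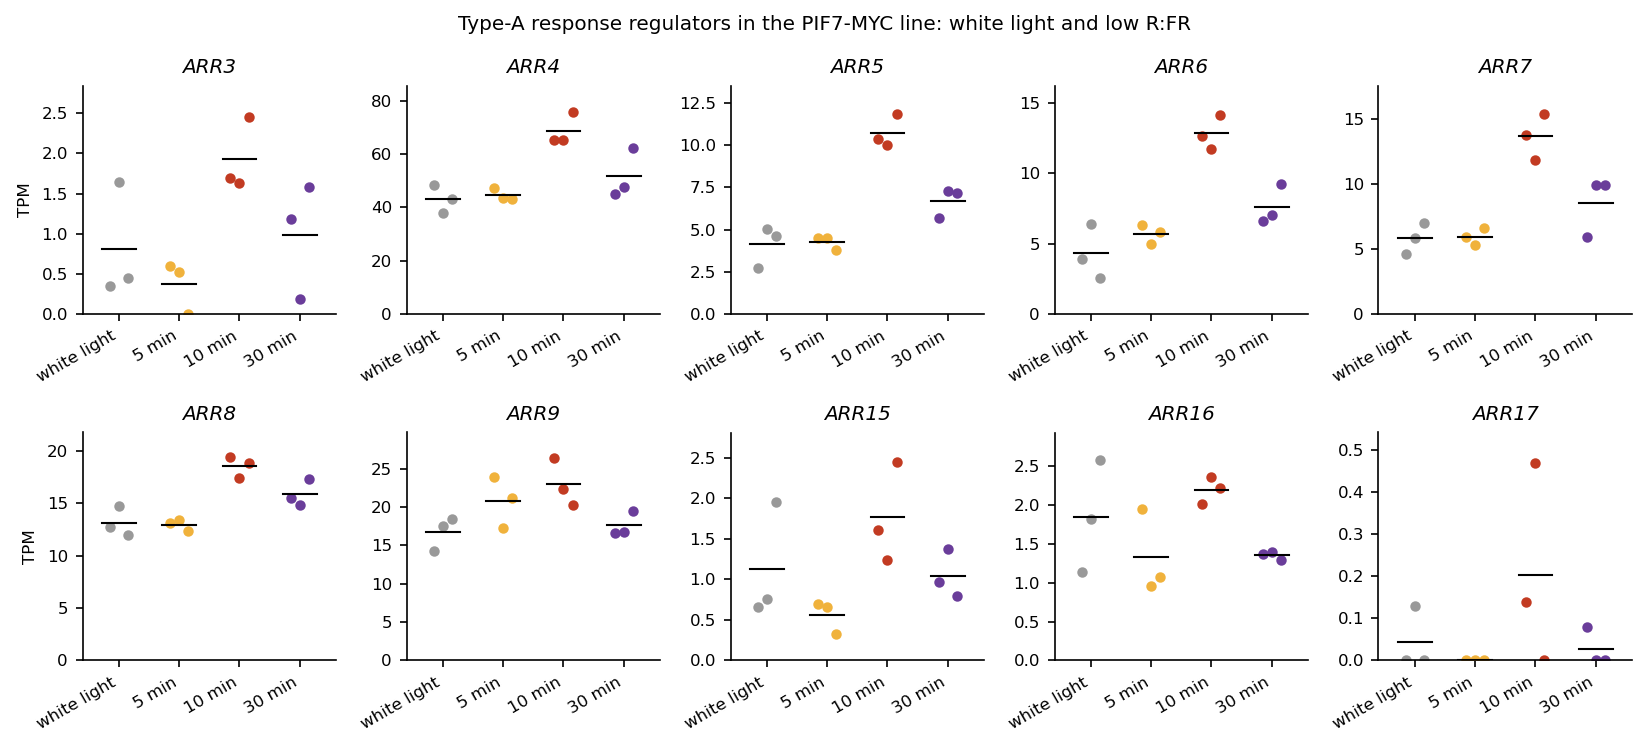
TPM of the 10 genes in the 12 libraries of the PIF7-MYC line (1 point a library, bar at the group mean, y axes from 0 and different for each gene) under white light and at 5, 10 and 30 min of low R:FR. For ARR4, ARR5, ARR6, ARR7 and ARR8 the 3 libraries of 10 min are the 3 highest of the 12.

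ARR9, the closest relative of ARR8, stood at 14.3, 17.6 and 18.4 TPM under white light, 23.9, 17.2 and 21.1 TPM after 5 min, 26.4, 22.3 and 20.2 TPM after 10 min and 16.6, 16.8 and 19.5 TPM after 30 min. Its 10 min range lay above white light and overlapped with 5 min. The change of 0.43 at 10 min did not pass (SE 0.14, adjusted p = 0.0841, limma). The low members ARR3, ARR15, ARR16 and ARR17 had positive changes of 0.19 to 0.75 at 10 min with overlapping ranges, and did not pass either.

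In all, 5 of 10 members were raised and 0 lowered at 10 min against white light, where 6.43% of all genes tested were called in either direction and 4.19% were raised. All 10 changes were positive, with a median of 0.57, beside 0.07 over all genes. At 5 min 0 of 10 were called, where 3.88% of all genes were, and 5 of the 10 changes were positive. At 30 min 0 of 10 were called against white light, where 4.83% of all genes were. ARR5, ARR6 and ARR8, above the white light range in all 3 libraries, had changes of 0.61, 0.76 and 0.25 (adjusted p = 0.0809, 0.0953 and 0.134, limma). The median shift of genes of at least 5 TPM was 0.06 at 10 min and 0.07 at 30 min, and the split of all called genes at 10 min turned from 1030 raised and 552 lowered to 885 and 1012 when each library was centred on its median. The 5 members were called under that scaling too.

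The 5 calls at 10 min rest on the variance shared by the 4 groups of the table. With white light and 10 min alone in the fit, 0 members passed and 129 genes did, and the adjusted p of the 5 members was 0.0512 to 0.0677 (limma). Leaving out 1 library gave 3 members without white light replicate 1 or 3, 2 without 10 min replicate 1 and 1 without 10 min replicate 3.

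The step between 5 and 10 min compares groups that do not include white light. It raised 7 of 10 members, where 15.1% of all genes were called and 9.85% were raised. These were ARR5 (1.15, SE 0.18, adjusted p = 0.00352, limma), ARR3 (1.11), ARR7 (1.07), ARR6 (1.05), ARR15 (0.82), ARR4 (0.61) and ARR8 (0.49). The highest adjusted p among them was 0.0470, for ARR3. Every 5 min value of ARR3 and ARR15 was under 1 TPM, and both calls were lost with a replicate block (adjusted p = 0.0867 and 0.0659, limma). The ARR3 call was also lost with a pseudocount of 0.1 (0.0721) and on leaving out any 1 library of the compared groups (0.0719 to 0.159). The ARR15 call was lost on leaving out any 1 of them except 10 min replicate 2 (0.0714 to 0.143). Without 10 min replicate 3 the count was 3, and without 5 min replicate 2 it was 4, while the count of all genes called fell too.

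From 10 to 30 min all 10 changes were negative, with a median of -0.43 beside 0.00 over all genes. In 8 of 10 members the 30 min libraries all lay below those of 10 min, and the exceptions were ARR15 and ARR17. The share of all genes with such a separation was not taken, so this count has no background. None of the 10 passed, where 8.25% of all genes were called. An unadjusted p under 0.05 was seen for 7 members, beside 5998 of 24589 genes tested. The smallest adjusted p was 0.0597, for ARR5 (-0.61, SE 0.18, limma). The call depended on the setting, since 5 members passed after median centring, 3 with a filter of at least 1 TPM on average and 3 with the compared groups alone. Of all genes 2505 were called after median centring, against 2028 without it. At 30 min ARR5, ARR6, ARR7 and ARR4 kept 39.0, 38.9, 35.1 and 33.0% of the gain in mean TPM seen at 10 min, and ARR8 kept 50.1%.

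The summed level of the 10 genes shows the same course. It was 91.1 ± 1.97 TPM in white light, 96.5 ± 6.74 TPM after 5 min, 153.7 ± 9.66 TPM after 10 min and 111 ± 15.8 TPM after 30 min (SD, n = 3 each). The 3 libraries of 10 min were the highest of 12 for 5 of the 6 members of at least 5 TPM on average, which held for 6.56% of 14462 genes of that level.

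Root markers moved with the 10 min group of table II. The sum of the 7 root markers, of which PYK10 is the bulk, spanned 420 to 869 TPM in white light, 680 to 754 TPM after 5 min, 1047 to 1140 TPM after 10 min and 862 to 944 TPM after 30 min. Against white light 1 of the 7 was raised at 10 min (PYK10, 0.93, adjusted p = 0.0260, limma) and 3 lay above in all libraries. Against 5 min 2 were raised (COBL9 and EXPA7, both of root hairs) and 6 lay above in all libraries. NRT2.1, the 7th, was at 0 to 0.17 TPM in table II.

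The other 6 root markers summed to 67.1 TPM in white light replicate 2, against 17.0 and 21.9 TPM in replicates 1 and 3, 16.1 to 28.8 TPM after 5 min and 72.8 to 80.8 TPM after 10 min. In that one white light library, ARR5, ARR6 and ARR7 together stood at 17.3 TPM, against 33.6 to 41.4 TPM after 10 min and 11.3 and 14.2 TPM in the other white light libraries. ARR4 and ARR8 stood at 37.7 and 14.7 TPM in it, against at least 65.2 and 17.4 TPM after 10 min. Without that library 5 members were raised at 10 min, and more of all genes were called than with it. That fit keeps the white light libraries low in the 6 markers, so its count cannot tell root transcripts apart. PYK10 stood at 802 TPM in that library, 403 and 484 TPM in the other white light libraries and 969.7 to 1062 TPM after 10 min. In 30 min replicate 2 the 6 markers summed to 20.9 TPM, PYK10 stood at 842 TPM and the 3 genes reached 24.2 TPM. The part of root transcripts in the 10 min changes was not tested.

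ARR3, a low member of the family, stood at 1.64 TPM in white light replicate 2, inside the 10 min range of 1.63 to 2.46 TPM, and at 0.35 and 0.44 TPM in the other white light libraries. The 30 min libraries had 1.18, 0.18 and 1.58 TPM, and the low value belongs to replicate 2, which was low in the 6 smaller root markers but not in PYK10 (870 and 891 TPM in the other libraries of 30 min). Table I showed no such course: ARR3 stood at 2.93 TPM in white light replicate 1, with the lowest sum of the 6 markers (43.5 TPM), and at 0.61 TPM in white light replicate 2, with 136 TPM. It was at 0 in 2 h replicate 3 (111 TPM) and in recovery replicate 3 (101 TPM), and at 7.52 TPM in 2 h replicate 2 (157 TPM). The part of root transcripts in the ARR3 changes was not tested.

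**Figure D2:**
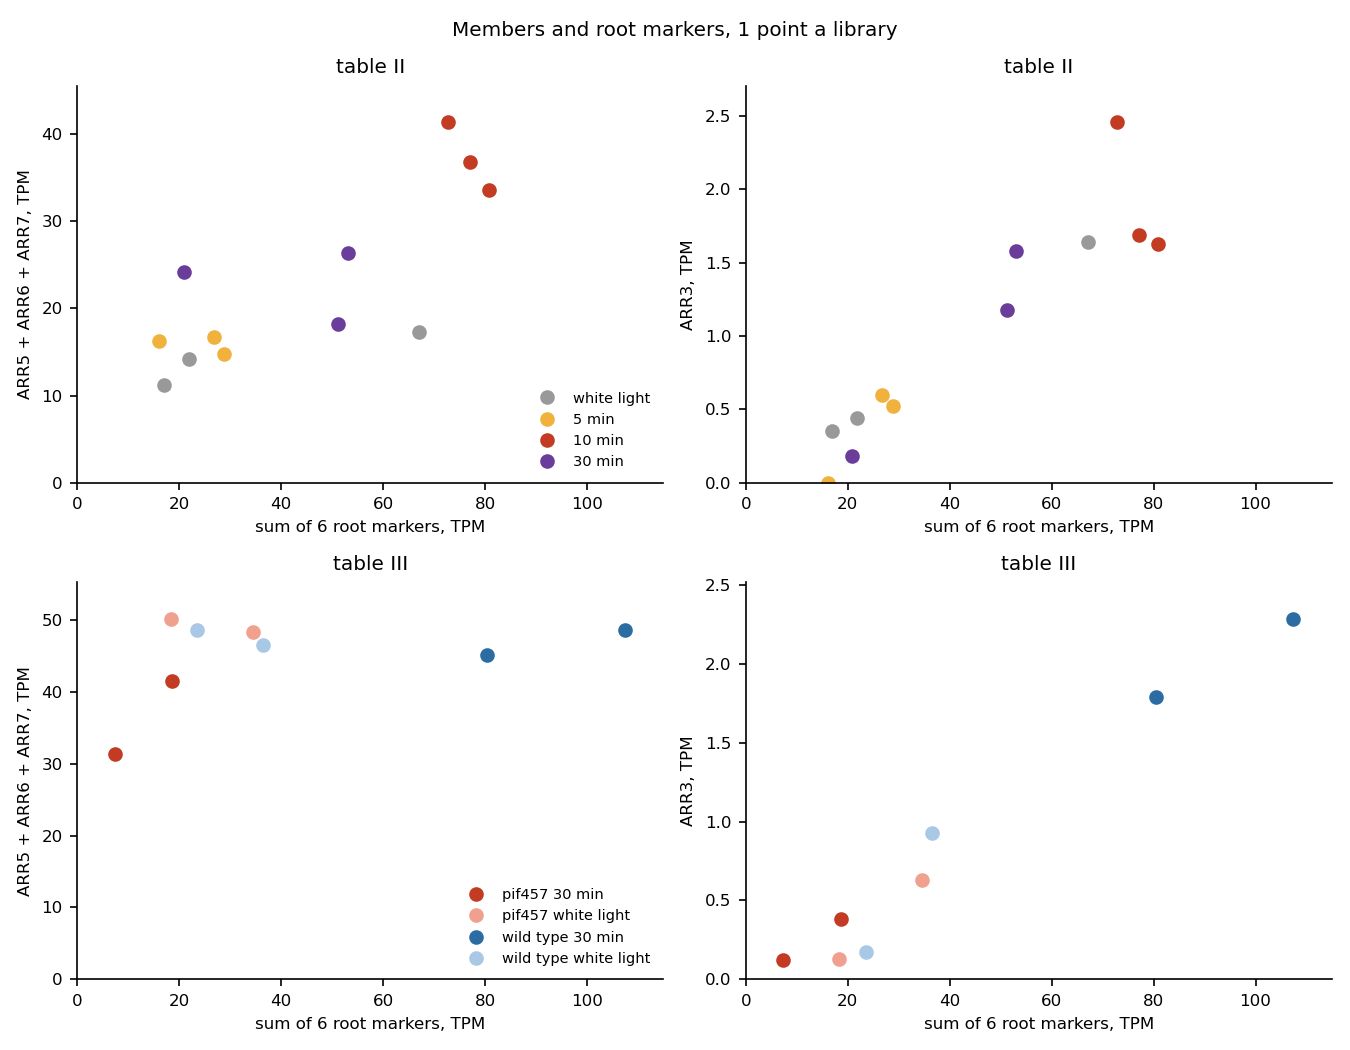
Summed TPM of ARR5, ARR6 and ARR7 (left) and TPM of ARR3 (right) against the summed TPM of 6 root markers (COBL9, EXPA7, PRP3, TIP2;3, PHT1;1 and NRT2.1), 1 point a library, for tables II (top) and III (bottom). ARR3 is high in the libraries with a high sum of these 6 markers in tables II and III. The white light library of table II with 67.1 TPM of the 6 markers has 17.3 TPM of the 3 genes. The other white light libraries there have 11.3 and 14.2 TPM of them. PYK10, which is not in the sum, stood at 802 TPM in that library, against 969.7 to 1062 TPM after 10 min.

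In wild type, 2 h of low R:FR lowered ARR9 and no other member. ARR9 stood at 46.6, 40.6 and 40.8 TPM under white light, 30.3, 27.7 and 21.9 TPM after 2 h and 35.7, 29.8 and 31.8 TPM in recovery. The white light libraries were above both other groups in full, and recovery overlapped with 2 h. The change at 2 h was -0.67 (SE 0.15, adjusted p = 0.0489, limma), so the call sits at the threshold. It was lost with a replicate block (adjusted p = 0.0581), with the compared groups alone (0.105) and without any 1 of the 6 libraries. The sum of the 4 green shoot markers had the same course, at 62199 to 69738 TPM in white light, 49964 to 58620 TPM after 2 h and 50431 to 58589.6 TPM in recovery, and its part in the ARR9 change was not tested.

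In that comparison 1 of 10 members was called, where 1.97% of all genes were, and 8 of 10 changes were negative with a median of -0.52, beside -0.01 over all genes. ARR16 had 1.31, 0 and 0 TPM after 2 h, against 6.07, 3.77 and 1.40 TPM in white light. Its 2 h libraries were all below white light, if narrowly, and the change of -1.71 did not pass (SE 0.51, adjusted p = 0.136, limma).

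ARR7 stood at 7.78, 0.94 and 4.10 TPM after 2 h, against 4.01, 9.98 and 22.0 TPM in white light. The groups overlapped and the change of -1.29 did not pass (SE 0.61, adjusted p = 0.374, limma). ARR4 stood at 51.7, 58.7 and 36.7 TPM after 2 h, against 50.4, 72.7 and 87.8 TPM in white light, and overlapped likewise (-0.50, SE 0.21, adjusted p = 0.315, limma). Scatter within groups was wide for the family in table I, with white light values of ARR6 at 6.40, 17.3 and 23.4 TPM. The 6 smaller root markers overlapped, at 111 to 157 TPM after 2 h, against 43.5 to 136 TPM in white light.

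In recovery 0 of 10 members were called against white light, where 0.711% of all genes were, and 0 of 10 against 2 h of low R:FR, where 1.11% of all genes were. In the second comparison 8 changes were positive, 1 was negative (ARR3) and ARR17 was at 0 in both groups. At an unadjusted p under 0.05 there were 2 members in the first and 4 in the second, beside 3284 and 2216 of 25331 genes tested.

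ARR5 stood at 13.0, 6.11 and 8.62 TPM in recovery, against 4.19, 4.54 and 4.42 TPM after 2 h, without overlap (0.87, SE 0.34, adjusted p = 0.445, limma). ARR7 stood at 9.32, 11.3 and 14.3 TPM in recovery and did not overlap with 2 h either (1.5, SE 0.61, adjusted p = 0.489, limma). ARR15 was at 4.32, 2.1 and 2.34 TPM in recovery, against 0, 1.16 and 0 TPM in white light (1.56, SE 0.52, adjusted p = 0.225, limma). ARR16 (1.36), ARR15 (1.31) and ARR6 (1.12) had positive changes against 2 h too, with overlapping ranges. ARR9 in recovery lay below white light in all libraries (-0.38, SE 0.15, adjusted p = 0.291, limma).

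In table III no member was called after 30 min of low R:FR. None of 10 members passed in wild type, where 0.119% of all genes did, and none of 10 in pif457, where 0.0123% did. At an unadjusted p under 0.05 there were 1 and 2 members, beside 2128 and 2293 of 24384 genes tested. In wild type the changes of ARR5, ARR6 and ARR7 were 0.14, 0.09 and -0.20. ARR7 stood at 19.2 and 17.9 TPM after 30 min, against 22.2 and 20.8 TPM in white light. ARR6 stood at 16.6 and 17.6 TPM after 30 min, against 15.3 and 16.8 TPM in white light.

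ARR8 in wild type stood at 31.3 and 26.2 TPM after 30 min, against 21.1 and 20.0 TPM in white light. The groups did not overlap, and the change of 0.46 did not pass (SE 0.24, adjusted p = 0.713, limma). ARR3 stood at 2.29 and 1.79 TPM after 30 min, against 0.93 and 0.17 TPM in white light (1.01, SE 0.26, adjusted p = 0.210, limma). The 6 smaller root markers summed to 107 and 80.5 TPM in wild type after 30 min, against 36.5 and 23.5 TPM in white light, while ARR5, ARR6 and ARR7 together stood at 48.7 and 45.2 TPM after 30 min, against 46.6 and 48.7 TPM in white light.

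**Figure D3:**
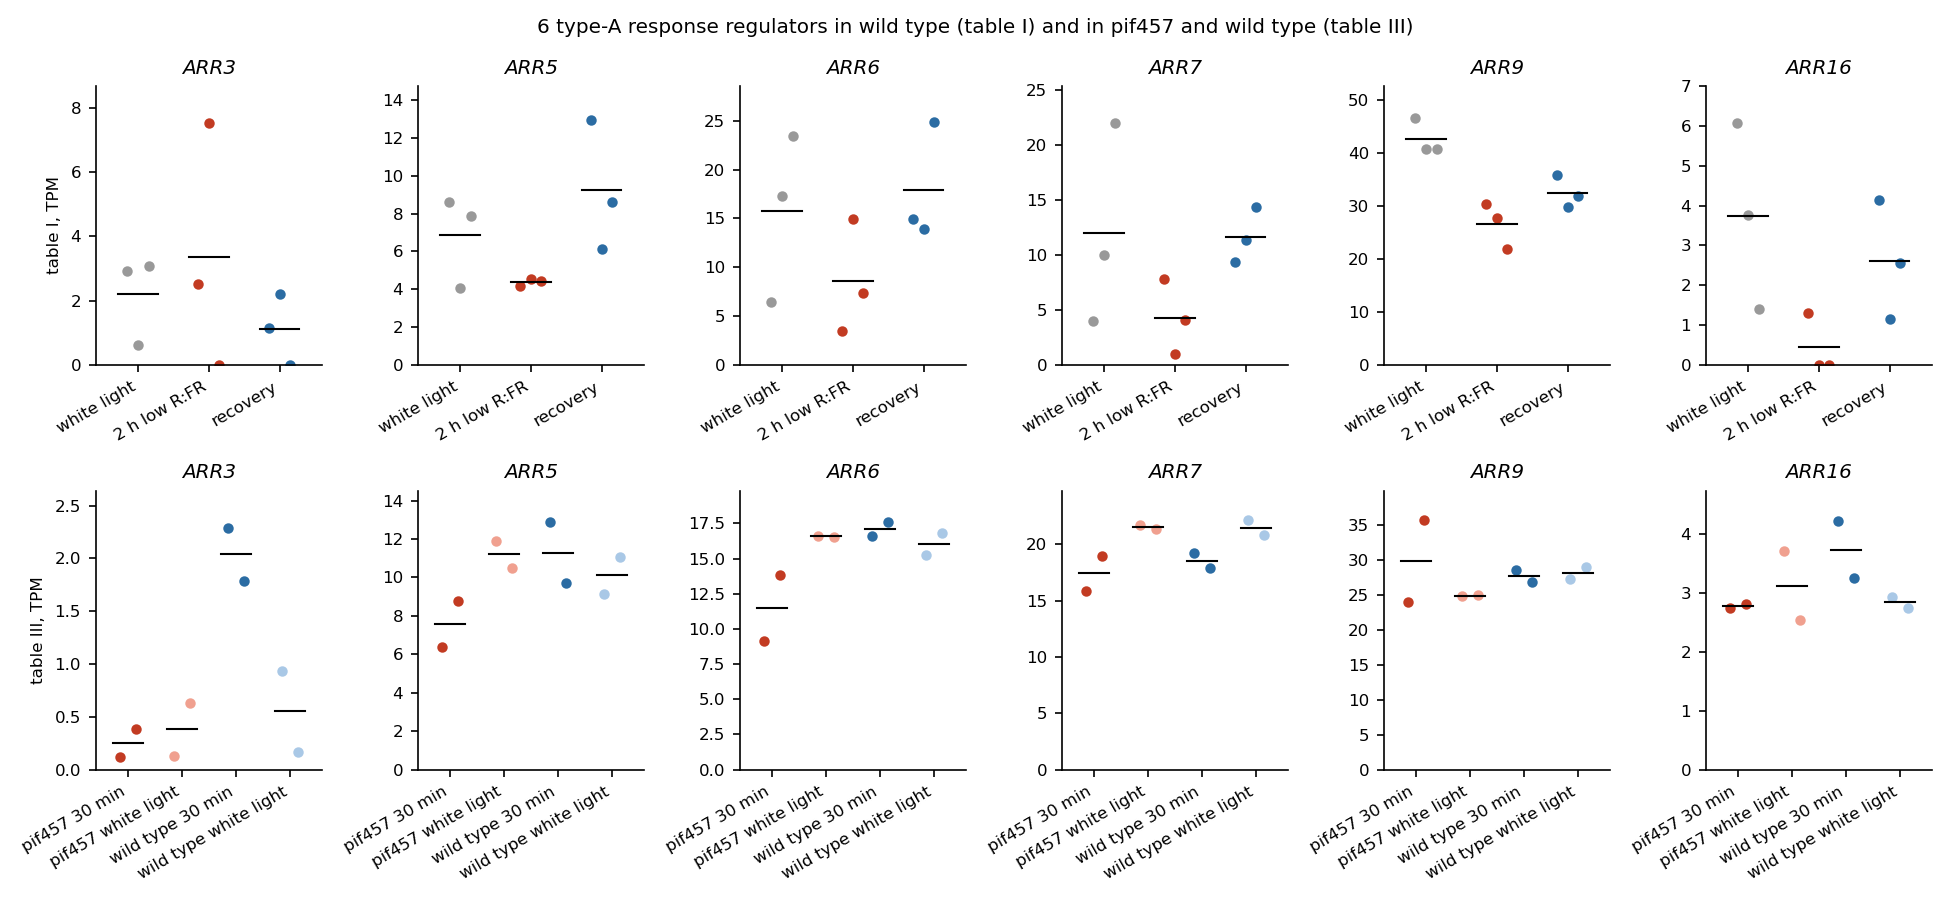
TPM of ARR3, ARR5, ARR6, ARR7, ARR9 and ARR16 by library (1 point a library, bar at the group mean, y axes from 0) in wild type of table I (top, 3 libraries a group) and in pif457 and wild type of table III (bottom, 2 libraries a group). ARR9 after 2 h lies below white light in table I, and ARR3 in wild type after 30 min lies above the other groups in table III.

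In white light the levels of the family in pif457 lay near those in wild type, with changes from -0.17 to 0.14. None of 10 members was called, where 0.0287% of all genes were, and 0 had an unadjusted p under 0.05, beside 1035 of 24384 genes. ARR4 stood at 109 and 94.6 TPM in pif457, against 107 and 95.6 TPM in wild type. ARR7 stood at 21.8 and 21.3 TPM in pif457, against 22.2 and 20.8 TPM in wild type.

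After 30 min of low R:FR, 1 of 10 members was lower in pif457, where 5.25% of all genes were called. ARR3 stood at 0.12 and 0.38 TPM in pif457, against 2.29 and 1.79 TPM in wild type. The groups did not overlap (-1.29, SE 0.26, adjusted p = 0.0306, limma). The call was lost with a pseudocount of 0.1 (adjusted p = 0.0688) and on leaving out pif457 replicate 1 (0.186) or either wild type library (0.293 and 0.136). Root transcripts differed in the same direction, with all 7 root markers below wild type in both libraries and 5 of them lowered. The 6 smaller ones summed to 7.36 and 18.6 TPM in pif457, against 107 and 80.5 TPM in wild type.

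Other members had lower values in pif457 after 30 min without passing. ARR6 stood at 9.13 and 13.9 TPM in pif457, against 16.6 and 17.6 TPM in wild type (-0.56, SE 0.21, adjusted p = 0.199, limma). ARR5 stood at 6.39 and 8.78 TPM in pif457, against 12.9 and 9.72 TPM in wild type (-0.52, SE 0.23, adjusted p = 0.299, limma). ARR4 stood at 74.0 and 79.2 TPM in pif457, against 94.9 and 91.3 TPM in wild type (-0.28, SE 0.13, adjusted p = 0.315, limma). None of these 3 overlapped, and the share of all genes without overlap was not taken.

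The shift of all genes must be set beside these values. In this comparison the median change of genes of at least 5 TPM was -0.18, and the members' median was -0.39. Of all called genes 51 were raised and 1229 lowered, which became 951 and 1381 after median centring and 433 and 1934 with ribosomal and organellar genes removed. Replicate 1 of pif457 is the library with 23.1% of such transcripts. Without replicate 2 there were 3 lowered members (ARR3, ARR6 and ARR8) among 8025 genes called, and without replicate 1 there were 0 among 42.

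The interaction, which asks whether 30 min of low R:FR acted differently in pif457 than in wild type, was negative for 9 of 10 members, with a median of -0.38 beside -0.23 for genes of at least 5 TPM. None passed, where 0.041% of all genes did. The largest was ARR3 (-1.14, SE 0.37, adjusted p = 0.274, limma), the 1 member with an unadjusted p under 0.05, beside 2818 of 24384 genes. For ARR6 and ARR8 it was -0.61 and -0.35 with all libraries. Without pif457 30 min replicate 2 it was -0.88 and -0.72. That fit leaves 1 library in the group, replicate 1, with 23.1% of ribosomal and organellar transcripts. The shift of all genes was not taken for it, so the larger values cannot be read as a stronger effect on these 2 genes.

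**Figure D4:**
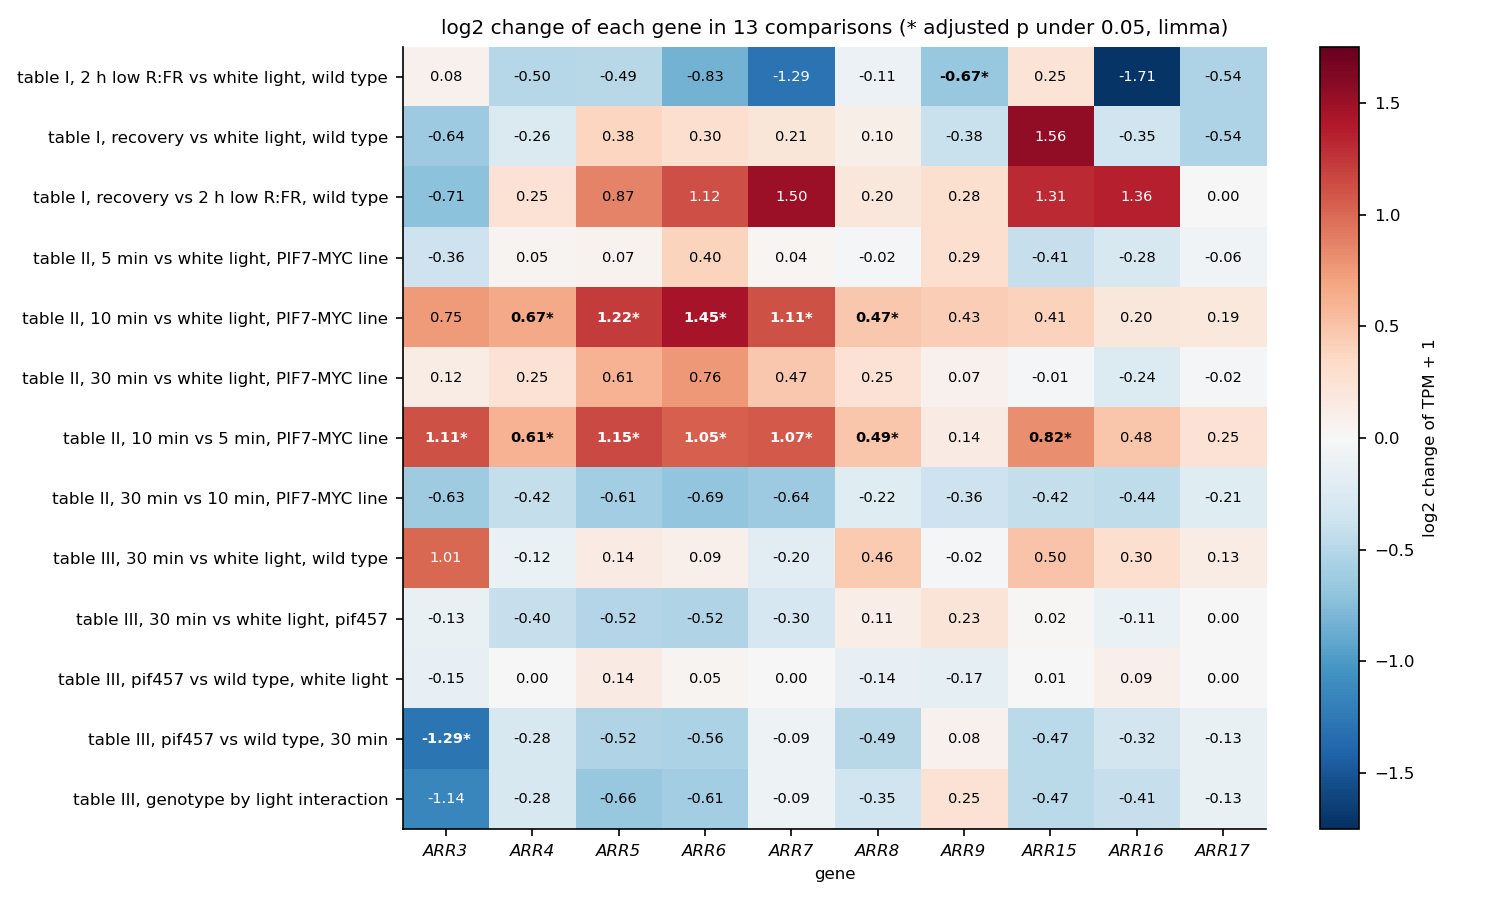
Differences of log2(TPM + 1) of the 10 genes (columns) in 13 comparisons (rows), red for higher and blue for lower in the group named first, with a star where the adjusted p is under 0.05 (limma). The calls are 5 at 10 min against white light, 7 at 10 min against 5 min, ARR9 after 2 h and ARR3 in pif457 after 30 min.

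PIF7 binding events were deposited for the MYC-tagged line, as positions called by GEM on pooled samples. The lists hold 1052 events of low R:FR over IgG at a time labelled ZT4, 998 of low R:FR over white light at ZT4, and 1408 of 30 min of low R:FR over white light. The description of the second list gives the sample numbers of the 2 light groups the other way round from the titles, so its direction is unsure. An event lay within 3 kb of the annotated span of 2 of 10 members, ARR4 and ARR8, in at least 1 list. Of 27444 protein-coding genes 10.7% had one.

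The k-mers that the caller attached to these events are shown because ARR4 and ARR8 are the members where PIF7 was placed. PIFs bind the G-box, and capitals mark the letters CACGTG or, where those are absent, the core ACGT. The letters are as the caller wrote them, and the strand is not given.

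ARR4, ZT4, low R:FR over white light: ctcCACGTGggcc
ARR4, ZT4, low R:FR over IgG: CACGTG
ARR4, 30 min, low R:FR over white light: CACGTG
ARR8, ZT4, low R:FR over IgG: acACGT
ARR8, 30 min, low R:FR over white light: CACGTG

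The ARR4 event was at the same place in all 3 lists, inside the annotated gene, with positions chr1:3442485, chr1:3442486 and chr1:3442482 (TAIR10). Its authors' fold over control was 3.5, 2.9 and 4.0 and its strength ranked 813 of 1052, 574 of 998 and 536 of 1408. The ARR8 events lay at different places, at chr2:17220578 (fold 5.1, rank 441 of 1052, over 1 kb from the gene) and chr2:17225464 (fold 2.9, rank 904 of 1408, within 1 kb). In each case the member was the nearest protein-coding gene in the RefSeq annotation. The letters CACGTG stand in the k-mer of 62.5, 79.7 and 69.9% of all events of the 3 lists. ARR5, ARR6 and ARR7 had no event within 5 kb in any list. Most genes had none either, since 15.4% of the 27444 protein-coding genes had one at that distance.

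**Figure D5:**
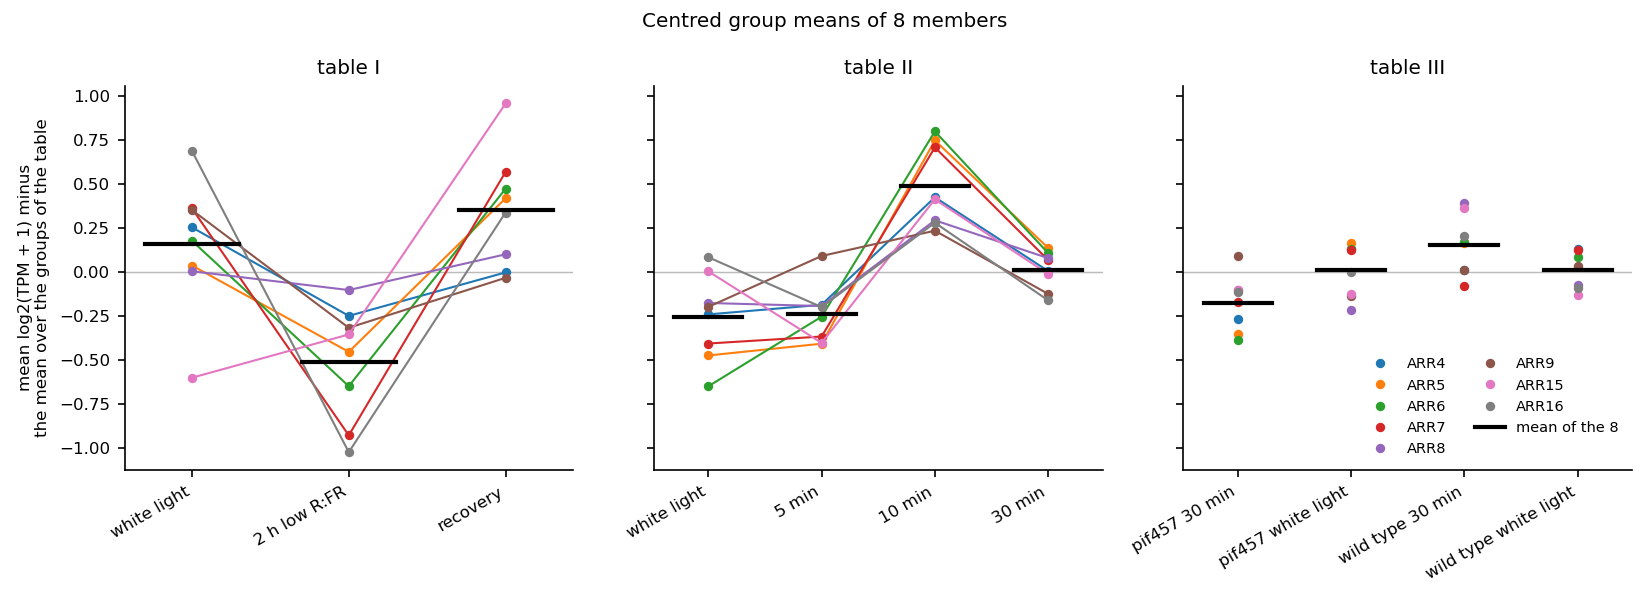
Group means of log2(TPM + 1) of the 8 members of at least 1 TPM on average in each table, less the mean over the groups of that table (points by gene, black bars for the mean of the 8). The mean of the 8 is lowest after 2 h in table I (-0.51) and highest after 10 min in table II (0.49), and spans less in table III (-0.18 to 0.15).

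ARR5, ARR6 and ARR7 also followed each other most closely across the 3 tables. Over 11 group means of log2(TPM + 1), each table centred on its own mean, the profile of ARR6 had a Pearson r of 0.94 with the mean of the other members, ARR7 0.94 and ARR5 0.92. ARR4 had 0.79, ARR16 0.69, ARR8 0.65, ARR9 0.54, ARR15 0.49, ARR17 0.47 and ARR3 0.31. Of 28 pairs of the 8 better expressed members 27 were positive, from -0.07 for ARR9 and ARR15 to 0.97 for ARR5 and ARR6. Within groups, over 29 libraries, the deviations of the same pairs had a median r of 0.07 and ran from -0.58 to 0.52. These values describe points that share libraries and, in part, root content and scaling.

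The 5 other genes whose profile was most like the mean of the 8 members, among 13540 genes of at least 5 TPM on average in each table, were ADCL (AT5G57850, r = 0.97), GS1 (AT5G57440, 0.97), IDN2 (AT3G48670, 0.96), NUDX14 (AT4G11980, 0.96) and AT1G01830 (0.95). With Spearman's rho in place of r, 3 of the 5 remained.

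The rest of the cytokinin pathway, 52 other genes, is given by its steps. At 10 min against white light 9 of 46 tested genes were raised and 1 lowered, where 6.43% of all genes were called. Among receptors, AHK4 was raised, at 9.80 ± 1.06 TPM after 10 min, against 5.05 ± 1.38 TPM in white light (0.86, adjusted p = 0.0218, limma). AHK4 is the receptor of the root vasculature. Of the 6 phosphotransfer genes 1 was raised and 1, AHP4, was lowered (6.34 ± 0.961 TPM after 10 min, against 14.4 ± 2.99 TPM in white light). None of the 8 type-B regulators tested was called.

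On the side of hormone supply, 2 of 13 synthesis genes tested were raised at 10 min, where 4.19% of all genes were. The 1 with the smaller adjusted p was CYP735A2, the hydroxylase that makes trans-zeatin. It stood at 1.3 ± 0.266 TPM against 0.380 ± 0.151 TPM in white light (0.73, adjusted p = 0.0141, limma). CKX5, 1 of 3 raised cytokinin oxidases, which break the hormone down, was at 0.850 ± 0.106 TPM against 0.250 ± 0.0300 TPM in white light (0.56, adjusted p = 0.00709, limma), and it was raised at 30 min too. Like the type-A genes, AHK4 and CYP735A2 were not called after 5 min, when they stood at 5.04 ± 0.225 and 0.487 ± 0.0902 TPM. Several of these genes are known from roots. Of the 7 root markers given above, 1 was raised at 10 min against white light and 3 lay above it in all libraries. Against 5 min 2 were raised and 6 lay above in all libraries. The part of root transcripts in the changes of these genes was not tested.

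In wild type after 2 h the other cytokinin genes gave 1 call in 47, where 1.97% of all genes were called. It was CGA1, a light- and cytokinin-responsive GATA factor of greening. CGA1 averaged 10.1 ± 1.60 TPM after 2 h, against 21.8 ± 2.88 TPM in white light (-1.05, adjusted p = 0.0172, limma). In recovery against 2 h 5 of 47 were called, where 1.11% of all genes were. CGA1 was raised (1.53) together with its paralog GNC (0.95) and the cytokinin synthesis gene IPT3 (1.46), while the oxidases CKX1 (-2.04) and CKX6 (-2.21) were lowered. CKX6, which is known from leaf primordia of shaded plants, stood at 3.39 ± 0.624 TPM in recovery, against 19.7 ± 5.41 TPM after 2 h. In pif457 after 30 min 3 of 45 were lower than in wild type (AHP1, IPT5 and CKX4), where 5.25% of all genes were called, and no type-B gene was called in any comparison of table III.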

How the data were processed

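The members and the lists of other cytokinin genes and markers were chosen with earlier results of these data known. Total RNA of seedlings was extracted with a Qiagen RNeasy Plant Mini kit, per the labels. The deposited expression values are the authors' TPM, given for 33602 gene models and made with STAR 2.6.0c and RSEM 1.3.0 on TAIR10, per the submitters' processing notes. RSEM shares out reads that fit several transcripts, so values of close paralogs such as ARR8 and ARR9 are estimates. TPM keeps no read depth, so no counting intervals or floors could be given. For each event, the deposited lists give the authors' signal (IP strength), fold over control and −log10 q-value, as the file headers name them, from Bowtie2 2.1.0 alignments. All value columns could be mapped (0 unmapped), and no library was dropped or imputed.

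limma 3.58.1 (R 4.3.3, lmFit and eBayes with trend) was fitted per table to log2(TPM + 1), a pseudocount of 1, over genes not at 0 in every library, with all groups in 1 fit and no replicate block. All 10 members were tested in each of 13 comparisons. The procedure was tested on simulated data. Replicate numbers are not stated to pair libraries. Residuals of libraries of the same number had median correlations of -0.0087, -0.058 and -0.017 in tables I, II and III. Single pairs ran from -0.10 to 0.061, -0.29 to 0.33 and -0.26 to 0.37, so the medians do not exclude pairing of some libraries. Python 3.11.15 with numpy 2.4.6, pandas 2.3.3 and matplotlib 3.10.9 was used for descriptions and figures. Symbols and gene neighbours come from a RefSeq gene table of the assembly TAIR10.1, whose coordinates are not printed. Named genes are the 10 members, up to 4 called cytokinin genes a comparison by smallest adjusted p, the 5 most like genes and PIF and shade genes. The promoter motif description that was planned was not run, and chromatin tracks were not analysed here. Alternatives were a pseudocount of 0.1, a filter at 1 TPM on average, a replicate block, removal of ribosomal and organellar genes, median centring, a 2-fold minimum, a fit to 2 groups only, omission of each library, and event distances of 1 and 5 kb.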

Additional observations from a re-analysis of the deposited data

How the results depend on the processing

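No member changed sign past a threshold in any alternative run. With the 3 lists joined, 2 of 10 members had a PIF7 event within 1 kb, where 5.72% of protein-coding genes did. Within 5 kb 2 did as well, beside 15.4% of genes, and with events above the median strength of their list 2, beside 5.44%. By list, those stronger events gave ARR8 alone at ZT4 over IgG, no member at ZT4 over white light and ARR4 alone at 30 min. Within 1 kb, both ZT4 lists gave ARR4 alone. Limits are as follows. TPM keeps no depth, so weak members such as ARR3, ARR15, ARR16 and ARR17 have no counting error here. Table III has 2 libraries a group, and leaving 1 out gives a group whose lone library is assumed to vary like the others. The cause of the changes listed below was not tested.

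Members called after 2 h against white light numbered 1, and 0 under the replicate block, a 2-fold minimum and the compared groups alone, and without any 1 library (0 to 0). At 10 min against white light the 5 members became 3 at a 2-fold minimum, 0 with the compared groups alone and 1 to 5 without 1 library. At 10 against 5 min the 7 became 4 at a 2-fold minimum and 3 to 6 without 1 library. At 30 min against white light 0 became 1 with the filter at 1 TPM and 0 to 2 without 1 library (2 without white light replicate 2). At 30 against 10 min 0 became 3 with that filter, 5 with median centring, 3 with the compared groups alone and 0 to 1 without 1 library (1 without 30 min replicate 3). In pif457 against wild type at 30 min the 1 member became 0 with a pseudocount of 0.1, 0 with the filter, which drops ARR3, and 0 to 3 without 1 library. For 30 min in pif457 and for the interaction the range without 1 library was 0 to 2, the highest without pif457 30 min replicate 2 in both.

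Counts of all genes, the background, moved further. For 2 h against white light 500 became 267 at 2-fold, 296 with the compared groups alone and 262 to 493 without 1 library. For recovery against white light 180 became 361 with the filter, 80 with the replicate block, 328 with ribosomal and organellar genes removed, 302 centred, 95 at 2-fold, 90 with the compared groups alone and 51 to 165 without 1 library. For recovery against 2 h 280 became 157 to 191 without 1 library. For 5 min 955 became 556 with the replicate block, 75 at 2-fold, 556 with the compared groups alone and 218 to 804 without 1 library. For 10 min 1582 became 920 with the replicate block, 137 at 2-fold, 129 with the compared groups alone and 106 to 3542 without 1 library, the lowest without white light replicate 3 and the highest without replicate 2. For 30 min 1188 became 169 at 2-fold, 423 with the compared groups alone and 497 to 1548 without 1 library. For 10 against 5 min 3703 became 599 at 2-fold and 1540 to 2734 without 1 library, and for 30 against 10 min 2028 became 268 at 2-fold, 1296 with the compared groups alone and 727 to 2793 without 1 library.

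In table III, wild type at 30 min gave 29 genes, which became 13 with a pseudocount of 0.1, 619 with the filter, 19 with the replicate block, 54 with ribosomal and organellar genes removed, 378 centred, 18 at 2-fold, 3 with the compared groups alone and 19 to 35 without 1 library. For pif457 at 30 min 3 became 21 with a pseudocount of 0.1, 593 with the filter, 20 with ribosomal and organellar genes removed, 174 centred, 141 with the compared groups alone and 15 to 5511 without 1 library. For pif457 against wild type in white light 7 became 12 with a pseudocount of 0.1, 232 with the filter, 20 centred, 3 with the compared groups alone and 9 to 28 without 1 library. At 30 min 1280 became 2367 with ribosomal and organellar genes removed, 2332 centred, 779 at 2-fold, 2059 with the compared groups alone and 36 to 8025 without 1 library. For the interaction 10 became 5 with a pseudocount of 0.1, 806 with the filter, 197 centred and 7 to 3145 without 1 library, the highest without pif457 30 min replicate 2. Centring on the median moved the share of raised among called genes by over 10 percentage points in 7 comparisons: 5, 10 and 30 min against white light and 30 against 10 min in table II, and in table III 30 min against white light in both genotypes and pif457 against wild type at 30 min.

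The replicate block used replicate numbers that are not stated to pair libraries. It kept 5 members called at 10 min against white light, left 5 of 7 at 10 against 5 min and 1 at 30 min between genotypes, and gave 0 in the other comparisons. Among the single genes 208 alternatives lost a call, 21 gained one and 1707 did neither.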

Other observations

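The other cytokinin genes were also tested in the remaining comparisons of tables I and II (limma, adjusted over all genes). At 5 min of low R:FR against white light in the PIF7-MYC line, the cytokinin response factor CRF6 was raised, at 7.35 ± 0.528 TPM against 5.09 ± 0.542 TPM in white light (0.46, adjusted p = 0.0427), and the activating enzyme gene LOG8 was lowered, at 28.4 ± 2.16 TPM against 37.5 ± 3.37 TPM in white light (-0.39, adjusted p = 0.0201), which makes 2 of 46 where 3.88% of all genes were called. At 30 min CRF6 (0.47), CKX5 (0.71) and the type-B regulator ARR1 (0.29, adjusted p = 0.0470) were raised and AHP4 was lowered (-0.79), 4 of 46 where 4.83% of all genes were called. From 5 to 10 min 11 of 46 were raised and 1 lowered, where 9.85% of all genes were raised and 15.1% called in all, and the 4 smallest adjusted p values belonged to the oxidases CKX5 and CKX3, LOG8 and the type-B regulator ARR10 (14.0 ± 1.49 TPM after 10 min, against 9.43 ± 0.405 TPM after 5 min, adjusted p = 0.00698). From 10 to 30 min AHP3, CYP735A2 and LBD3 were lowered, 3 of 46 where 8.25% of all genes were called. In recovery against white light GNC alone of 47 was called, where 0.711% of all genes were, at 68.7 ± 3.88 TPM in recovery, against 37.9 ± 6.20 TPM in white light (0.85, adjusted p = 0.0301).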
